A study of Mus musculus with 56 samples.

Results

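Genes of the lipoprotein lipase axis and of fatty acid uptake were followed in mouse heart around the clock: Angptl4, Lpl, Gpihbp1, Lmf1, Cd36, Fabp3, Slc27a1, Acsl1 and Vldlr. They were chosen by gene symbol for their known roles, with earlier results of these data known. All 9 were found among the 22864 genes listed and passed the filter on low values, as did 13893 genes in all. Hearts came from female C57BL/6J mice, an inbred strain, aged 9 weeks, housed in 12 h of light and 12 h of darkness. All animals had food for a limited phase of the day for 7 days. This was the light phase in daytime-restricted feeding (DRF) and the dark phase in nighttime-restricted feeding (NRF), which is the reference for a nocturnal animal. PolyA RNA was sequenced every 4 h at 7 zeitgeber times (ZT, counted in hours from lights on), ZT0 to ZT24, with 4 replicates in each of 14 groups and 56 libraries in all. The labels do not say that the replicates of a group were separate mice, so p-values measure the spread between these libraries, and no group was fed without restriction.

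Lipoprotein lipase, made by heart muscle cells, splits the triglyceride of circulating lipoproteins at the capillary wall and so releases fatty acids for the heart, which burns them as its main fuel. ANGPTL4, a secreted protein known to rise in fasting, inactivates the lipase. GPIHBP1 carries the lipase across the endothelium, and LMF1 helps it to fold. CD36 and the transport protein SLC27A1 bring fatty acids into the cell, FABP3 binds them there, and ACSL1 couples them to coenzyme A. VLDLR binds lipoproteins rich in triglyceride at the cell surface.

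The libraries held 29.3 to 53.0 M recovered reads, of which the 9 genes took 0.844 to 1.18%. Levels are given as TPM, reads per length of transcript scaled to a fixed sum per library, so levels of different genes can be compared. All 7 cardiomyocyte markers averaged above 1 TPM, with a summed level of 25407 to 40538 TPM per library. Genes that mark other cells were present too. The summed level of 9 adipocyte markers ran from 47.8 to 350.1 TPM, with Lep under 1 TPM, and that of 10 endothelial markers from 625 to 1247 TPM. In these bulk samples fewer cells of a type and less RNA per cell cannot be told apart. Over 1086 other genes whose rhythm differed between regimens, 49 of the 56 libraries lay nearest to the mean of their own group, 3 more lay nearest to the other end of the day (ZT0 or ZT24) in NRF, and 2 went against their labels by lying nearest to a group of the other regimen. Another 2 lay nearest to a neighbouring time of their own regimen, DRF ZT20 replicate 4 to DRF ZT24 (0.181 against 0.191) and NRF ZT4 replicate 1 to NRF ZT24 (0.244 against 0.270). The library labelled DRF ZT4, replicate 1, lay nearest to the NRF ZT8 mean, at a root mean square distance of 0.162 against 0.395 log2 units from the rest of its own group. The library labelled NRF ZT8, replicate 1, lay nearest to the DRF ZT4 mean, at 0.171 against 0.375 log2 units from its own. Dbp, an output gene of the circadian clock, was at 119 TPM in the first against 17.7 to 37.7 in the rest of its group, and at 20.1 TPM in the other library against 117 to 158. Both were kept under their labels, and results that rest on them are given with and without them. Whether the labels of this pair had been exchanged was not tested, and each of the DRF ZT4 and NRF ZT8 groups would then hold 1 library of the other.

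**Figure D1:**
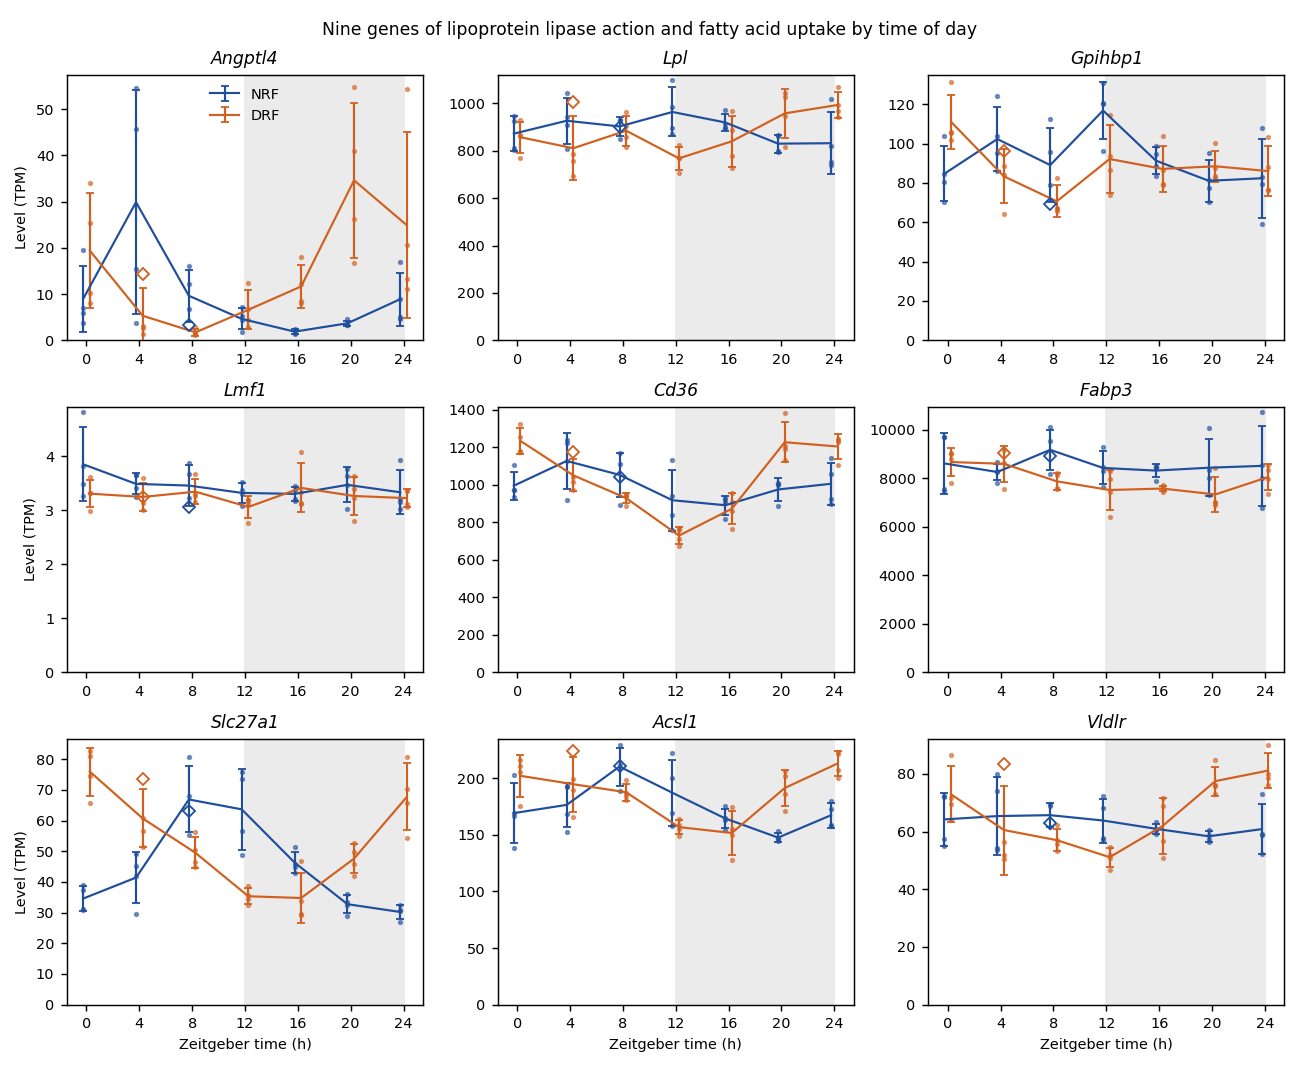
Level of each gene in TPM (vertical axes, from 0) against zeitgeber time in hours under NRF (blue) and DRF (orange), with dots for single libraries, open diamonds for the 2 libraries that went against their labels, and lines and bars for means ± SD (n = 4, bars ending at 0 where they would pass below it). The dark phase is shaded. Angptl4 is highest at ZT4 under NRF and at ZT20 under DRF, Slc27a1 at ZT8 and at ZT0, while the highest group mean of Lmf1 and Fabp3 is at most 1.18 times the lowest within each regimen.

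Levels spanned more than 3 orders of magnitude. Fabp3 averaged 8231 TPM over the 56 libraries and ranked 13 among all listed genes. Cd36 followed at 1014 TPM and Lpl at 883 TPM, then Acsl1 at 180 TPM and Gpihbp1 at 90.4 TPM. Vldlr averaged 64.4 TPM, Slc27a1 49.1 TPM and Angptl4 12.3 TPM. Lmf1 was lowest at 3.36 TPM. Ranges over single libraries of neighbours in this order overlapped except between Fabp3 and Cd36 and between Lpl and Acsl1. Angptl4 varied most by time, with its highest group mean 15.96-fold above its lowest under NRF and 20.2-fold under DRF. The same ratio was 2.22 and 2.19 for Slc27a1, and for the other 7 genes it ran from 1.11 to 1.69.

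The first comparison asked which of the genes were rhythmic, by a limma F test of a 24 h harmonic in the 28 libraries of each regimen, with Benjamini-Hochberg adjustment over all genes tested and a threshold of 0.05. Under NRF 4 of the 9 passed (Angptl4, Cd36, Slc27a1 and Acsl1), where 37.2% of all genes tested did. Under DRF 6 passed, the same 4 with Fabp3 and Vldlr, where 32.2% of all genes did. Rhythm under both regimens was thus found in 4 genes, against 17.5% of all genes. The difference in rhythm itself, tested as the interaction of regimen with the harmonic over all 56 libraries, passed for 7 of the 9 (all but Lmf1 and Fabp3), against 27.5% of all genes. Without the 2 libraries that went against their labels 7 again passed, against 30.5%.

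**Figure D2:**
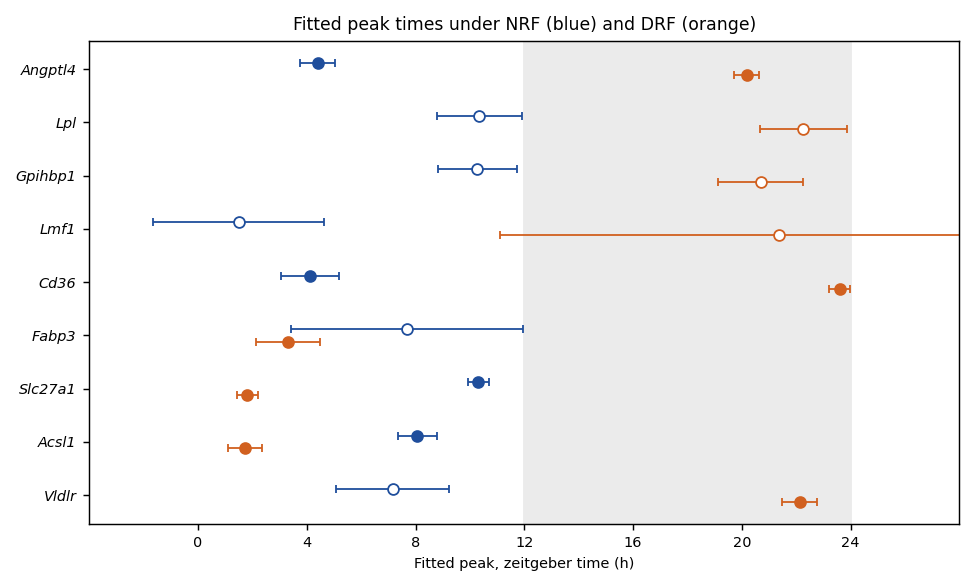
Fitted peak time (horizontal axis, zeitgeber time in hours) with its standard error for each gene under NRF (blue) and DRF (orange); filled points passed the rhythm test and open points did not, and the dark phase is shaded. All 4 genes rhythmic under both regimens peak at ZT4.11 to ZT10.3 under NRF and between ZT20.2 and ZT1.82 under DRF, each earlier than under NRF, while the peak of Lmf1 is not resolved.

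Angptl4, the lipase inhibitor, had group means of 1.72 to 5.31 TPM at the 4 times inside a feeding phase and of 9.63 to 34.6 TPM at the 4 times inside a fasting phase. Under NRF it was at 15.5, 3.73, 45.8 and 54.6 TPM at ZT4 in the fasting phase, and at 2.41, 2.26, 1.51 and 1.31 TPM at ZT16 in the feeding phase. At ZT20 it was at 3.44, 3.40, 4.54 and 3.32 TPM. The ZT4 group was the least uniform, since 1 of its libraries lay at the level of the fed groups.

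Under DRF the times were exchanged. Angptl4 was at 40.9, 54.7, 26.2 and 16.7 TPM at ZT20, now in the fasting phase, and at 1.36, 2.88, 1.55 and 1.09 TPM at ZT8 in the feeding phase. At ZT4 it was at 14.3, 3.06, 2.61 and 1.29 TPM, where the highest value is that of the library labelled DRF ZT4, replicate 1. At ZT16, early in the fast, it was at 7.97, 18.02, 8.47 and 12.2 TPM, all above the 4 NRF libraries of that time.

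Taking ZT4 and ZT8 against ZT16 and ZT20 within a regimen, the fasted mean of Angptl4 was 19.8 ± 19.5 TPM and the fed mean 2.77 ± 1.09 TPM under NRF (SD, n = 8 each), a ratio of 7.13. Under DRF these means were 23.1 ± 16.7 and 3.52 ± 4.42 TPM (SD, n = 8 each), a ratio of 6.58. Without the library labelled DRF ZT4, replicate 1, the fed mean was 1.98 ± 0.839 TPM (SD, n = 7), the ratio was 11.7 and fed and fasted libraries no longer overlapped. Under NRF, without the library labelled NRF ZT8, replicate 1, the fasted mean was 22.1 ± 19.8 TPM (SD, n = 7) and the ratio 7.97. There the lowest fasted library, at 3.73 TPM, still lay below the highest fed library, at 4.54 TPM. Averaged over both regimens the feeding-phase difference was -2.22 on the log2(TPM + 1) scale (SE 0.29, limma adjusted p = 1.07e-06), and -2.45 without both libraries. The light-phase difference was -0.26 (95% interval -0.83 to 0.31), which did not pass. From ZT8 and ZT20 alone it was -1.31 (adjusted p = 0.0209). Angptl4 was rhythmic under NRF with a peak at ZT4.40 (SE 0.632 h) and under DRF with a peak at ZT20.2 (SE 0.452 h). Its peak came 8.22 h earlier under DRF (95% interval 6.70 to 9.74 h), or 9.21 h without replicate 1 of every group and 7.41 h without replicate 2. Counted from the removal of food, the peak lay at 4.40 h under NRF and at 8.18 h under DRF, 3.78 h later (SE 0.777 h).

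**Figure D3:**
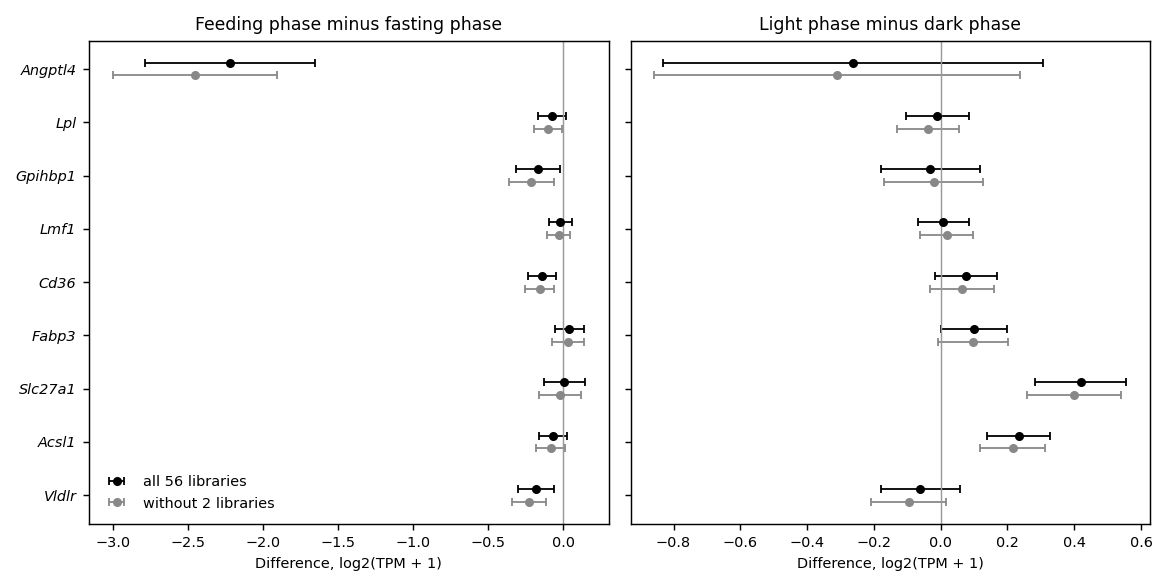
Difference in log2(TPM + 1) (horizontal axes) between feeding and fasting phase (left) and between light and dark phase (right) for each gene, from ZT4, ZT8, ZT16 and ZT20, with 95% intervals and axes of unequal range, in all 56 libraries (black) and without the 2 that went against their labels (grey). Angptl4 stands at -2.22 on the left, and Slc27a1 at 0.42 and Acsl1 at 0.23 on the right.

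Lpl itself moved little. Its group means stayed between 830 and 964 TPM under NRF and between 768 and 994 TPM under DRF, and it passed the rhythm test under neither regimen (limma adjusted p = 0.0933 and 0.113), though without ZT8 it passed under DRF with an amplitude of 0.19 against 0.11 with all times (adjusted p = 0.0231). Its fitted peaks lay at ZT10.3 and ZT22.3, and the interaction passed (limma adjusted p = 0.0145). At ZT12 it was at 770, 771, 705 and 826 TPM under DRF and at 1101, 872, 986 and 897 TPM under NRF. Every DRF library there was below every NRF library, and the difference was -0.32 (limma adjusted p = 0.0318). That call was lost without any 1 of DRF ZT12 replicates 1, 2 and 3 or NRF ZT12 replicates 1 and 3 (adjusted p = 0.0522 to 0.144), and the interaction without ZT12, ZT20 or ZT24 (0.0778 to 0.212) or replicate 3 or 4 of every group (0.0859 to 0.106). The ratio of highest to lowest group mean was 1.16 under NRF and 1.29 under DRF, so the level of the lipase transcript varied far less by time than that of its inhibitor.

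Gpihbp1, the endothelial carrier of the lipase, had its highest group mean at ZT12 under NRF and at ZT0 under DRF, both at the time when food was given. At NRF ZT12 it was at 131, 120, 120 and 96.1 TPM, and at DRF ZT0 at 102, 105, 131 and 106 TPM. At DRF ZT24, again the time of food, it was lower at 76.3, 103, 76.3 and 87.9 TPM, a mean of 86.0 against 111 TPM at ZT0 and 92.2 TPM at ZT12. The log2 difference of ZT24 from ZT0 was -0.37 (limma unadjusted p = 0.0181, adjusted p = 0.286). The lowest group was DRF ZT8, at 67.0, 65.9, 66.9 and 82.7 TPM. It passed the rhythm test under neither regimen (limma adjusted p = 0.0674 under NRF and 0.144 under DRF), but without the 2 libraries it passed under NRF (limma adjusted p = 0.0110), as 1 of 5 genes, against 42.8% of all genes. It also passed under NRF without ZT8 (amplitude 0.31 against 0.18 with all times, adjusted p = 0.00281), without replicate 1 of every group (0.0426) and with a second harmonic (0.0454). Under DRF it passed with median-of-ratios scaling (0.0322), with the deposited values (0.0334) and without ZT12 (0.0286). The interaction passed with all libraries (limma adjusted p = 0.0169), though not without ZT0 (0.0867) or replicate 2, 3 or 4 of every group (0.0540 to 0.106). Of the 10 endothelial markers, 8 had a lower mean level under DRF, against 24.3% of all genes, and the medians of their summed level were 886 TPM under NRF and 798 TPM under DRF. The mean level of Gpihbp1 differed by -0.10 (95% interval -0.21 to 0.02, limma adjusted p = 0.210). The markers also varied by time. A different rhythm passed in 4 of the 10 (Kdr, Tek, Emcn and Cldn5), against 27.5% of all genes, and a feeding-phase effect in Kdr (-0.19, adjusted p = 0.0369). Cldn5, a tight junction gene, had a DRF amplitude of 0.62 with a peak at ZT22.7, and the peaks of the other markers are not reported here. The fitted DRF peak of Gpihbp1 lay at ZT20.7 (SE 1.56 h), from a rhythm that did not pass. Under DRF the summed markers had their highest medians at ZT4 (883 TPM) and ZT0 (861 TPM), where Gpihbp1 averaged 83.3 and 111 TPM. The part of endothelial content in its level was not tested.

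Lmf1, the maturation factor, stayed between 3.06 and 3.85 TPM in every group mean. It passed none of the tests, with a feeding-phase difference of -0.02 (95% interval -0.10 to 0.06) and a light-phase difference of 0.01 (95% interval -0.07 to 0.08). At its depth of 551 to 1316 reads per library these intervals exclude changes as large as that of Angptl4.

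Slc27a1, the fatty acid transport protein, was rhythmic under both regimens. Under NRF it was at 63.3, 68.1, 55.2 and 80.9 TPM at ZT8 and at 75.7, 56.6, 73.6 and 48.7 TPM at ZT12. It was at 32.4, 30.9, 26.9 and 30.4 TPM at ZT24. Under DRF it was at 81.1, 82.8, 65.6 and 74.4 TPM at ZT0 and at 80.6, 54.2, 70.3 and 65.9 TPM at ZT24. At DRF ZT12 it was at 38.5, 35.8, 32.4 and 34.6 TPM. Levels were thus high around the time food was given and low around the time it was removed, and the regimens did not overlap at ZT0, ZT4, ZT12, ZT20 or ZT24.

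Slc27a1 had amplitudes of 0.55 (SE 0.05) under NRF and 0.54 (SE 0.05) under DRF on the log2 scale, with peaks at ZT10.3 (SE 0.387 h) and ZT1.82 (SE 0.387 h). The interaction had the smallest adjusted p of the 9 genes (limma, 3.04e-14). Its peak came 8.50 h earlier under DRF (95% interval 7.42 to 9.57 h), and 7.80 h earlier without ZT4. The feeding-phase difference was 0.01 (95% interval -0.13 to 0.15), but -0.47 from ZT8 and ZT20 alone (adjusted p = 0.00186). The light-phase difference was 0.42 (SE 0.07, limma adjusted p = 7.10e-06). The former contrast averages opposite signs, since fed minus fasted was -0.41 under NRF and 0.43 under DRF (limma adjusted p = 0.00178 and 0.00109).

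RefSeq (GRCm38.p6) gave 10 start sites for 6 of the 9 genes. The 250 bases before each were searched on both strands for CACGTG (E-box), a direct repeat of AGGTCA with 1 base between (bound by nuclear receptors such as the PPARs), GTAAACA (forkhead), TTATGTAA and TTACGTAA (D-box) and AGAACA and TGTTCT with 3 bases between (glucocorticoid receptor element). Of all 32851 start sites, 6.02% held the first, 0.0335% the repeat, 3.17% the forkhead motif, 0.931% a D-box and 0.00913% the last. The only match, so that none overlapped, was an E-box 202 bases before the third start site of Slc27a1. This window is printed with the first windows of Acsl1 and Cd36, the other genes of the uptake step that were rhythmic under both regimens, for comparison. Capitals mark the E-box, and all are 5′ to 3′ on the strand of the gene.
Slc27a1, chr8:71570344-71570593, plus strand: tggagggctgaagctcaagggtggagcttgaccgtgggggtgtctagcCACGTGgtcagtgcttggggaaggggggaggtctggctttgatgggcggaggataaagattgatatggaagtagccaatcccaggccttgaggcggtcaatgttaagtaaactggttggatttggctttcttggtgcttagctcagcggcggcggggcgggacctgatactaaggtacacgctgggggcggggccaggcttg
Acsl1, chr8:46470787-46471036, plus strand: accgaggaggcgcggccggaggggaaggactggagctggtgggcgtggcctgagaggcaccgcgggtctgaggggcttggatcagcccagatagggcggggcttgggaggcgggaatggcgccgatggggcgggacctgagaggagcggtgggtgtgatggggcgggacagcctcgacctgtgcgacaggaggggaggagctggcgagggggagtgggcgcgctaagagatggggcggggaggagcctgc
Cd36, chr5:17835897-17836146, minus strand: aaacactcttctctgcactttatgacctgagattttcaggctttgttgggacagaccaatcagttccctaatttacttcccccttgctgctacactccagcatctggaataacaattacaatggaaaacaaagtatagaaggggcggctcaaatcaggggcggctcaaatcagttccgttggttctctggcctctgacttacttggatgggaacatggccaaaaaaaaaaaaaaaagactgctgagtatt

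Acsl1, the acyl-CoA synthetase, was also rhythmic under both regimens, with a smaller range than Slc27a1. Under NRF it was at 211, 212, 189 and 230 TPM at ZT8 and at 146, 153, 147 and 145 TPM at ZT20. Under DRF it was at 223, 200, 207 and 222 TPM at ZT24 and at 174, 155, 150 and 128 TPM at ZT16. Within each regimen the highest and the lowest of these groups did not overlap. Peaks lay at ZT8.06 (SE 0.713 h) and ZT1.73 (SE 0.639 h), 6.33 h earlier under DRF (95% interval 4.45 to 8.21 h), and 5.29 h earlier without ZT4. The interaction passed (limma adjusted p = 2.02e-05). Its feeding-phase difference was -0.07 (95% interval -0.16 to 0.03), or -0.27 from ZT8 and ZT20 alone (adjusted p = 0.0142), and its light-phase difference 0.23 (SE 0.05, limma adjusted p = 1.70e-04). An antisense gene, Gm45244, shares 1039 exonic bases with it, and the strand setting of the read counting was not given in the sources used here.

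Cd36, the fatty acid translocase, swung more widely under DRF than under NRF. Under DRF it was at 1251, 1182, 1174 and 1325 TPM at ZT0 and at 672, 711, 772 and 760 TPM at ZT12. Under NRF it was at 1127, 917, 1241 and 1220 TPM at ZT4 and at 918, 815, 928 and 901 TPM at ZT16, and these groups overlapped in part. Amplitudes were 0.35 (SE 0.03) under DRF and 0.14 (SE 0.04) under NRF on the log2 scale. Its peak moved from ZT4.11 to ZT23.6, 4.52 h earlier (95% interval 2.30 to 6.74 h), with a limma adjusted p of 1.94e-05 for the interaction, which tests peak and amplitude together. The rhythm under NRF (limma adjusted p = 0.0268) was lost without ZT4 (0.139), ZT16 (0.158) or replicate 2, 3 or 4 of every group (0.0590 to 0.178). The feeding-phase difference was -0.14 (SE 0.05, limma adjusted p = 0.0480) and lost its call without replicate 2, 3 or 4 of every group (0.141 to 0.204).

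Vldlr, the lipoprotein receptor, was rhythmic under DRF (peak ZT22.1, SE 0.643 h, limma adjusted p = 9.17e-05). Under DRF it was at 90.0, 76.1, 78.6 and 80.1 TPM at ZT24 and at 54.8, 50.9, 46.8 and 52.0 TPM at ZT12. Under NRF its group means stayed between 58.4 and 65.7 TPM, and the rhythm test did not pass (limma adjusted p = 0.371). The difference in rhythm did (1.17e-04). The feeding-phase difference was -0.18 (SE 0.06, limma adjusted p = 0.0476). It was -0.23 without the 2 libraries that went against their labels (adjusted p = 0.00393), and it lost its call without replicate 2, 3 or 4 of every group (0.176 to 0.313).

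Fabp3, the most abundant of the 9, stayed between 7326 and 9164 TPM in every group mean. It was the only one whose mean level over the day passed the test, lower under DRF by a log2 difference of -0.11 (limma adjusted p = 0.0277), where 24.3% of all genes were lower and 1.67% higher. The mean was 7938 ± 725 TPM under DRF, against 8525 ± 928 TPM in the NRF libraries (SD, n = 28 each), and single libraries overlapped. After scaling by the median of ratios the difference was -0.05 (adjusted p = 0.430), and Slc27a1 (0.16, adjusted p = 0.0215) and Acsl1 (0.10, adjusted p = 0.0353) were called higher under DRF instead. The call of Fabp3 was also lost with limma-voom (0.0844), without a filter (0.0790) and with the deposited values (0.140). It was lost too without replicate 1, 2 or 3 of every group (0.0963 to 0.241) and without ZT8, ZT12, ZT16 or ZT20 (0.0554 to 0.274). The mitochondrial share of reads was 21.7 ± 1.47% in the DRF libraries against 20.4 ± 1.57% for NRF (SD, again over 28 libraries), and the summed level of 6 macrophage markers had medians of 417 TPM (DRF) and 524 TPM (NRF). The part of either in these differences was not tested. Its rhythm under DRF (adjusted p = 0.0428) was lost under each of 16 alternatives, among them without the library labelled DRF ZT4, replicate 1, and its counterpart (0.0762). The antisense genes Gm10570 and Zcchc17 share 80 and 81 exonic bases with it.

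The next comparison set the phase of feeding beside the phase of light, at ZT4, ZT8, ZT16 and ZT20. It does not fully separate them, since a peak shift short of 12 h enters both contrasts. Light phase also stands for clock time here. A feeding-phase effect passed in 3 of the 9, Angptl4, Cd36 and Vldlr, all lower in the feeding phase, where 2.85% of all genes were lower and 9.85% passed in either direction. The median feeding-phase difference of the 9 genes was -0.07, beside 0.03 over all genes tested. A light-phase effect passed in 2, Slc27a1 and Acsl1, both higher in the light phase, where 26.4% of all genes were higher. From ZT8 and ZT20 alone both also passed the feeding-phase test (-0.47 and -0.27). The median light-phase difference was 0.01 for the 9 genes and 0.05 for all.

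Within NRF 4 of the 9 were lower when fed than when fasted (Angptl4, Cd36, Slc27a1 and Acsl1), where 14.4% of all genes were lower. Within DRF Angptl4 and Vldlr were lower, where 4.61% of all genes were, and Slc27a1 was higher, where 21.9% were. Angptl4 alone passed in the same direction under both regimens.

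The contrast above leaves out the hours when food was given or removed. With these times in view, a further contrast was added after the values were seen: the onset of food (DRF ZT0 and ZT24, NRF ZT12) minus its end (DRF ZT12, NRF ZT0 and ZT24). It is a description of a pattern noticed first. In all 6 genes were higher at the onset (Lpl, Gpihbp1, Cd36, Slc27a1, Acsl1 and Vldlr) at a limma adjusted p under 0.05, where 13.2% of all genes were higher. Slc27a1 differed by 0.97 (95% interval 0.80 to 1.14), a 1.96-fold change, and the other 5 by 0.22 to 0.30. Angptl4 differed by 0.39 (95% interval -0.31 to 1.08) and did not pass. The same hours were also read by clock time alone, as lights on (ZT0 and ZT24) minus lights off (ZT12) over both regimens, which is not a difference between light and dark phase. This difference was 0.03 for Slc27a1 (adjusted p = 0.871) and 0.13 for Acsl1 (adjusted p = 0.146). It passed for Cd36 at 0.44 (adjusted p = 1.37e-07), above its onset difference of 0.30, for Angptl4 at 1.12 (adjusted p = 0.0238) and for Vldlr at 0.27 (adjusted p = 0.00811).

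**Figure D4:**
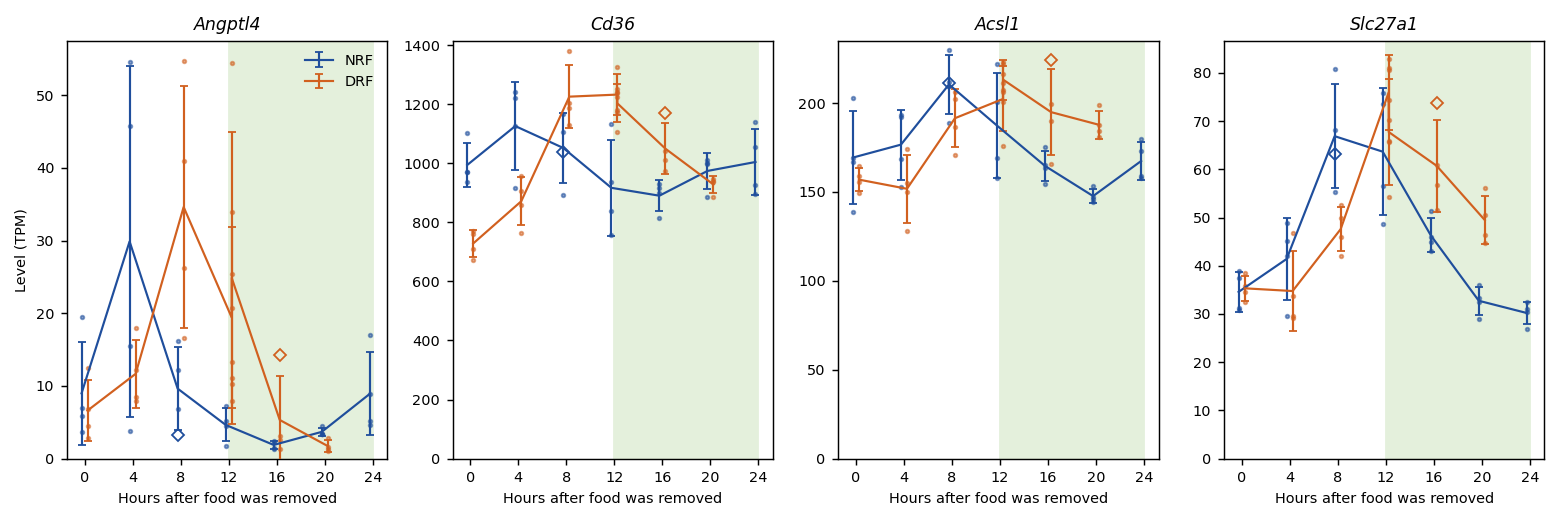
Level in TPM (vertical axes, from 0) of the 4 genes rhythmic under both regimens against hours after food was removed, with the feeding phase shaded, under NRF (blue) and DRF (orange), for single libraries (dots), the 2 libraries that went against their labels (diamonds) and means ± SD (n = 4, ending at 0 where bars would pass below it). DRF ZT0 and ZT24 both lie at 12 h. Fitted peaks come later after food removal under DRF in all 4, by 3.78 h for Angptl4, 7.48 h for Cd36, 5.67 h for Acsl1 and 3.50 h for Slc27a1.

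Feeding was moved by 12 h between the regimens. The 95% intervals of the peak shift ended below 12 h for Angptl4, Cd36, Slc27a1 and Acsl1. By the class limits of the study, with 8 to 12 h called phase inverted, Angptl4 and Slc27a1 fell in that class, although both intervals reach below 8 h, and Cd36 and Acsl1 lay between the locked class (0 to 4 h) and the inverted class, with an interval that reaches below 4 h for Cd36 and above 8 h for Acsl1. The study analysed rhythms with MetaCycle, while the peaks here came from harmonic fits, so the classes are not matched in method. Arntl, Dbp, Per2 and Nr1d1, 4 genes of the circadian clock and its output, were also rhythmic under both regimens, and their fitted peaks came 0.777 to 2.14 h earlier under DRF.

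The regimens were then compared at each clock time with limma contrasts. At ZT0 Cd36 and Slc27a1 were higher under DRF, 2 of the 9 against 11.5% of all genes in either direction and 3.04% higher. With the deposited values Cd36 lost its call (adjusted p = 0.0908). Gpihbp1 gained one with median-of-ratios scaling (0.46, adjusted p = 0.00957), with limma-voom (0.0299) and with the deposited values (0.0445). Acsl1 gained one with median-of-ratios scaling (0.33, adjusted p = 0.0106) and with limma-voom (0.0138). At ZT4 none of the 9 passed, against 0.446% of all genes, and at ZT8 none, against 0.353%. At an unadjusted p under 0.05 there were 3 of the 9 at ZT4 and 4 at ZT8, against 12.0% and 14.6% of all genes. With limma-voom 1 passed at ZT4 and 0 at ZT8, against 1.10% and 1.79%. Without the library labelled DRF ZT4, replicate 1, and the library labelled NRF ZT8, replicate 1, Angptl4 was lower under DRF at ZT4 by a log2 difference of -2.72 (adjusted p = 0.00344) and at ZT8 by -2.20 (adjusted p = 0.0251). The share of all genes called was then 3.45% at ZT4 and 3.60% at ZT8.

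At ZT12 Lpl, Cd36 and Slc27a1 were lower under DRF, 3 of the 9 against 7.64% of all genes in either direction and 6.37% lower. Lpl and Cd36 lost these calls with median-of-ratios scaling (adjusted p = 0.0915 and 0.0880) and with the deposited values (0.0697 and 0.0551). At ZT16 only Angptl4 passed, higher by 2.09 (limma adjusted p = 0.0225), where 6.87% of all genes passed and 0.648% were higher. Without the 2 libraries Slc27a1 passed there too, lower by a log2 difference of -0.43 (adjusted p = 0.0458). At ZT20 5 of the 9 were higher under DRF, against 14.8% of all genes in either direction and 3.35% higher. They were Angptl4 by 2.81, Slc27a1 by 0.53, Vldlr by 0.40, Acsl1 by 0.37 and Cd36 by 0.33. At ZT24 Slc27a1 by 1.13, Vldlr by 0.42 and Acsl1 by 0.35 were higher, 3 of the 9 against 8.83% of all genes in either direction and 4.38% higher. By limma, none of the 9 passed between ZT24 and ZT0 under DRF (0.425% of all genes) or under NRF (0.0576%), with 2 and 1 at an unadjusted p under 0.05, against 12.2% and 9.16% of all genes.

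Left out one library at a time, the differences of Slc27a1 at ZT0, ZT12, ZT20 and ZT24, of Angptl4 at ZT20 and of Acsl1 at ZT20 kept their calls. With 1 replicate number dropped from every group, Slc27a1 at ZT20 lost its call without number 4 (0.0585) and Acsl1 at ZT20 without number 3 or 4 (0.0571 and 0.0523), and Acsl1 at ZT24 without number 1, 3 or 4 (0.0542 to 0.129). Cd36 at ZT0 lost its call without DRF replicate 1 or 4 or NRF replicate 2 or 3 (adjusted p = 0.0644 to 0.0906). At ZT12 it did so without DRF replicate 1, 2 or 3 or NRF replicate 1 or 3 (0.0558 to 0.202), and at ZT20 without DRF replicate 3 or NRF replicate 4 (0.0531 to 0.0668). Angptl4 at ZT16 lost its call without DRF replicate 2 or 4 or NRF replicate 3 or 4 (0.0558 to 0.0899). Vldlr at ZT20 lost its call without DRF replicate 4 or NRF replicate 3 (0.0517 to 0.0564), and at ZT24 without DRF replicate 1 or NRF replicate 2 or 3 (0.0564 to 0.119). Acsl1 at ZT24 lost its call without DRF replicate 1 or NRF replicate 3 (0.0666 to 0.0702) and with the deposited values (0.0512). Other differences gained a call. At ZT0 that of Acsl1 passed without DRF or NRF replicate 3 (0.0215 to 0.0281). At ZT4 that of Angptl4 passed without DRF replicate 1 or NRF replicate 2 (0.00570 to 0.00644), and that of Slc27a1 without NRF replicate 3 (0.0332). At ZT8 that of Angptl4 passed without NRF replicate 1 (0.0404), and at ZT16 that of Slc27a1 without DRF replicate 1 (0.00837). At ZT24 Lpl passed without NRF replicate 1 (0.0134) and Cd36 without NRF replicate 2 (0.0403).

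**Figure D5:**
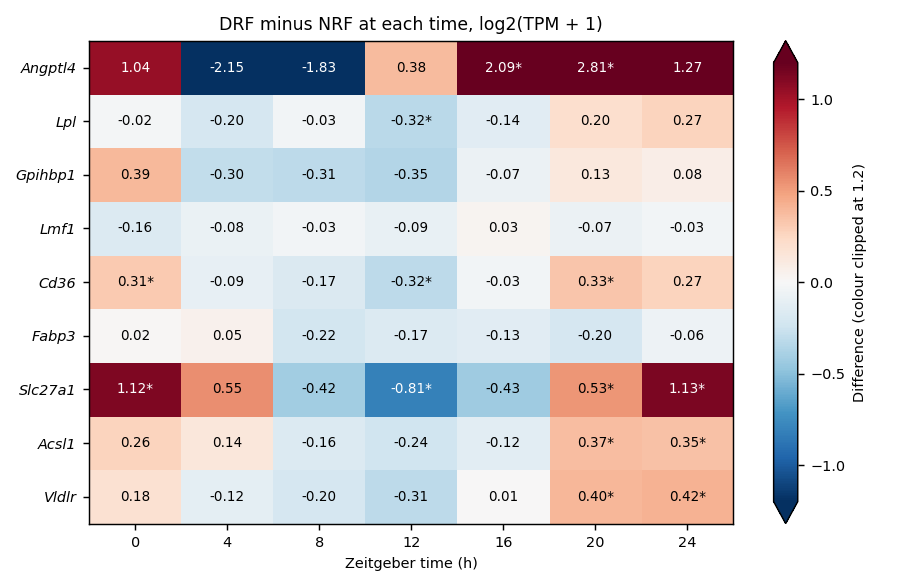
DRF minus NRF in log2(TPM + 1) for each gene (rows) at each zeitgeber time in hours (columns), printed in each cell and shown in colour clipped at 1.2, with a star at a limma adjusted p under 0.05. Slc27a1 is higher under DRF at ZT0, ZT20 and ZT24 and lower at ZT12, and Angptl4 is higher at ZT16 and ZT20, with -2.15 at ZT4 and -1.83 at ZT8 that carry no star.

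Genes with the most similar time course were looked up by Pearson's r over the 14 group means, which share their libraries and are not independent. Nearest to Angptl4 were Prkd1 (r = 0.929), Pdk4 (r = 0.926), the kinase that restrains glucose oxidation, and Ifit1bl2 (r = 0.902). Pdk4 had a feeding-phase difference of -2.11, close in size to that of Angptl4. Nearest to Slc27a1 were Fbxl4 (r = 0.952), Fbxo9 (r = 0.951) and Ppil6 (r = 0.948). For Cd36 they were Vwa3a (r = 0.958), Mlycd (r = 0.927), malonyl-CoA decarboxylase, and Adamts5 (r = 0.898). For Acsl1 they were Slc25a42 (r = 0.938), a mitochondrial coenzyme A carrier, Rab11b (r = 0.928) and Dsg2 (r = 0.927). The first gene was Ddx28 for Vldlr (r = 0.960), Tnks for Lpl (r = 0.947) and Dazap1 for Fabp3 (r = 0.916). It was Rad52 for Gpihbp1 (r = 0.895) and Naif1 for Lmf1 (r = 0.873). Within the 9 genes the highest r was that of Slc27a1 with Acsl1 (0.883), followed by Cd36 with Vldlr (0.857).

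Other genes of the same pathways were counted from lists. Of 20 further genes of lipoprotein lipase action, 18 were listed and 14 tested. Their median feeding-phase difference was 0.05, beside 0.03 over all genes. A light-phase effect passed in 5 of the 14, near the 34.1% of all genes. Hspg2, which encodes a heparan sulfate proteoglycan of the basement membrane, was higher in the light phase by 0.35, Pcsk5 by 0.22 and Sel1l by 0.17. Furin (-0.20) and Pcsk6 (-0.13), which encode proprotein convertases as Pcsk5 does, were lower. Of 23 further genes of fatty acid uptake, binding and activation, 20 were tested. A feeding-phase effect passed in 2, the transport protein gene Slc27a4 (0.14) and Zdhhc5 (0.13), which encodes a palmitoyltransferase of CD36, both higher. A different rhythm passed in 5 of the 20, against 27.5% of all genes, among them Fabp4, which encodes a fatty acid binding protein of adipocytes and endothelium (adjusted p = 0.0384). The 5 of 20 lie near the 27.5% of all genes, and the 2 of 20 near the 9.85% for the feeding-phase test.

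A list of 11 known targets of the PPARs, the fatty acid receptors to whose targets Angptl4 itself belongs, was counted too. It was chosen with earlier results of these data known, and the study names Cpt1a and Ucp3 among genes phase inverted in heart. The shares that follow are therefore a description of these genes. In the feeding phase 6 of the 11 were lower, against 2.85% of all genes, and none higher, with a median of -0.23 beside 0.03 over all genes. A different rhythm was found in 7 of the 11, against 27.5% of all genes. The largest differences were those of Pdk4 (-2.11) and Ucp3 (-1.43), which encodes a mitochondrial uncoupling protein. They were followed by Acot1 (-0.70), a thioesterase that frees fatty acids from coenzyme A, Cpt1a (-0.56), which carries fatty acids to the mitochondrion, Acot2 (-0.35) and Plin5 (-0.23), a lipid droplet protein. The peak of Pdk4 came 7.69 h earlier under DRF and that of Cpt1a 9.43 h earlier. Cpt1b, Plin2, Acadm, Hadha and Slc25a20 did not pass the feeding-phase test.

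None of the 8 adipocyte markers tested passed the feeding-phase, light-phase or mean-level test, and their summed level had medians of 108 TPM in the light phase and 99.7 TPM in the dark phase under NRF and of 95.2 and 91.5 TPM under DRF. Adipocytes make Angptl4 too, and their part in its level was not tested. None of the 7 cardiomyocyte markers passed the feeding-phase or light-phase test, but 3 passed the mean-level test, Actc1 (-0.18, adjusted p = 0.00388) and Tnnc1 (-0.12, adjusted p = 0.00653) lower and Tnnt2 (0.10, adjusted p = 0.0202) higher under DRF. Their part in the lower mean level of Fabp3 was not tested.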

How the data were processed

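PolyA RNA of mouse heart had been sequenced by the authors in 56 libraries. Per the submitters' processing notes, HISAT2 2.0.5, featureCounts 1.5.0-p3 and the build mm10 were used, and the annotation was not given in the sources used here. The deposited values, which the authors named TPM, were neither linear TPM nor any other usual unit: each equalled a library constant times log2(1 + scaled reads) divided by exon length. Whole reads were therefore recovered by fitting these constants, with exon lengths from GENCODE M21 (99.9996% of values within 0.1 of a whole read). For 831 genes, Angptl4 and Lmf1 among them, the length was searched for, and Lpl, Cd36 and Fabp3 were too abundant for the check and kept the annotated length. The design had assumed linear TPM, and its tests were kept on TPM recomputed from the reads.

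Genes that averaged 1 TPM or more were tested on log2(TPM + 1), which understates changes of low genes, with limma 3.58.1 (R 4.3.3, eBayes with trend) and Benjamini-Hochberg adjustment over all genes tested. Fits were a 24 h harmonic per regimen, its interaction with regimen, and contrasts of 14 group means. Depth was 29.3 to 53.0 M reads per library, with a median of 37.4 M. No pair of libraries was identical. Recovery and fits were tested on simulated data. Alternatives were a pseudocount of 0.1, median-of-ratios scaling, no filter, limma-voom on recovered reads, deposited values as they stand, a replicate block, a second harmonic and leaving out replicates, libraries or times. The rule for named genes was the 9 members, the 3 genes nearest to each by Pearson's r, and for each list the largest differences and a few examples. The members and lists were chosen with earlier results of these data known. Some genes of the lists are not reported here.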

Additional observations from a re-analysis of the deposited data

Results flagged for a closer look

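Single libraries stood far from the other 3 of their group, by Dixon's criterion, in 9 of 126 groups of values (7.14%), where chance gives about 1 in 20. Angptl4 was at 14.3 TPM in the library labelled DRF ZT4, replicate 1, against 1.29 to 3.06 TPM in the others, and this is 1 of the 2 libraries that went against their labels. Angptl4 was also at 4.54 TPM in NRF ZT20, replicate 3, against 3.32 to 3.44 TPM. Gpihbp1 was at 131 TPM in DRF ZT0, replicate 3 (others 102 to 106 TPM), and at 82.7 TPM in DRF ZT8, replicate 4 (others 65.9 to 67.0 TPM). Cd36 was low at 886 TPM in DRF ZT8, replicate 4, at 1107 TPM in DRF ZT24, replicate 3, and at 885 TPM in NRF ZT20, replicate 4. Fabp3 was at 8430 TPM in DRF ZT20, replicate 3, and at 7886 TPM in NRF ZT16, replicate 2.

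The effect of time of day differed between the regimens in 7 genes, by limma's interaction test with Benjamini-Hochberg adjustment. Adjusted p was 3.04e-14 for Slc27a1, 1.10e-07 for Angptl4, 1.94e-05 for Cd36, 2.02e-05 for Acsl1, 1.17e-04 for Vldlr, 0.0145 for Lpl and 0.0169 for Gpihbp1.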

How the results depend on the processing

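No called result changed its direction under any alternative but 1. That contrast, at ZT0, ZT12 and ZT24 and chosen after seeing the data, gave differences of the other sign for Angptl4 (0.39), Cd36 (0.30) and Vldlr (0.30) than the feeding-phase contrast, and called 6 genes in place of 3, where 21.7% of all genes were called in place of 9.85%. Of these Lpl (-0.07 to 0.22), Gpihbp1 (-0.17 to 0.29) and Acsl1 (-0.07 to 0.27), not called before, turned sign too. It reads other hours. The feeding-phase count was 1 without a filter on low values (5.11% of all genes) and 5 from ZT8 and ZT20 alone (5.11%), with Acsl1 (-0.27) and Slc27a1 (-0.47 from 0.01, adjusted p = 0.00186) added. Genes with a different mean level (1, against 26% of all genes) numbered 2 with median-of-ratios scaling (Slc27a1 and Acsl1, higher, in place of Fabp3, against 13.2%) and without ZT4 (Angptl4 added, against 29.5%). They numbered 0 without a filter (14.1%), with limma-voom (19.6%), with the deposited values (13.7%) and without ZT8, ZT12, ZT16 or ZT20 (10.2 to 21.5%). Gpihbp1 gained a feeding-phase call with median-of-ratios scaling (-0.19, adjusted p = 0.0323) and the deposited values (0.0369), which made 4, against 13.4% and 11.2% of all genes. With median-of-ratios scaling Lpl at ZT20 (0.0434) and Cd36 at ZT24 (0.0454) gained calls, 4 genes passed at ZT0 (14.1% of all genes), 2 at ZT4 (1.66%) and 1 at ZT12 (10.6%). With limma-voom 4 passed at ZT0 (13.8% of all genes), 1 at ZT4 (1.10%), 0 at ZT16 (6.67%) and 5 at ZT24 (14.1%), and with the deposited values 1 at ZT12 (9.08%). Without the 2 libraries that went against their labels, an alternative added after seeing the data, 1 passed at ZT4 (3.45% of all genes), 1 at ZT8 (3.60%) and 2 at ZT16 (8.01%). Leaving out replicates or single libraries gave 3 to 5 genes rhythmic under NRF, 5 under DRF, 5 to 7 with a different rhythm, 0 to 1 with a different mean level, 1 to 3 with a feeding-phase effect and 2 with a light-phase effect. With 1 replicate number dropped from every group, 20.2 to 37.8% of all genes were rhythmic under NRF and 16.5 to 25.7% under DRF. A different rhythm passed in 13.3 to 23.6% of all genes and a different mean level in 8.48 to 26.7%. The feeding-phase test passed in 2.35 to 11.1% and the light-phase test in 22.1 to 30.4%. The counts at single times were then 1 to 3 at ZT0, 0 to 2 at ZT4, 0 to 1 at ZT8, 1 to 4 at ZT12, 0 to 2 at ZT16, 1 to 5 at ZT20 and 1 to 4 at ZT24. With 1 replicate number dropped, the shares of all genes were 4.35 to 10.4% at ZT0, 0.115 to 4.77% at ZT4 and 0.0216 to 2.27% at ZT8. They were 0.605 to 13.9% at ZT12, 0.813 to 8.31% at ZT16, 5.28 to 19% at ZT20 and 1.43 to 11% at ZT24. The cause of these changes was not tested, other than that fewer samples were fitted.

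Replicate numbers did not pair the libraries: over 28 same-numbered pairs the correlation of deviations ran from -0.179 to 0.115, with 1 over 0.1. With the number as a block 3 members had a feeding-phase effect (9.85% of all genes) and 7 a different rhythm (27.2%), as without it, and Lpl at ZT24 passed (adjusted p = 0.0449).

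The median difference over all genes moved by at most 0.0945 between scalings. Angptl4 had 65 to 2844 reads per library and Lmf1 551 to 1316, so depth bears on these 2 more than on the others.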
